A study of Mus musculus with 36 samples.

Results

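The genes of cholesterol synthesis and sterol handling were followed in liver and kidney of mice on 3 diets, and their responses to a ketogenic diet were set side by side gene by gene. The set was chosen by gene symbol: 32 symbols were listed, of which 31 were found among the 33495 genes of the liver table and the 37991 genes of the kidney table. The remaining symbol, Msmo1, is the newer name of Sc4mol, under which the tables hold that gene. Hmgcs1, the synthase of the second step of the pathway, appears in each table as 2 rows on unplaced contigs with 0 counts in all 36 libraries, so no level of it can be read. The other 30 genes had counts, and all 30 passed the filter on low counts in both tissues.

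The mice were 12-month-old males of the strain C57BL/6 NIA, all first habituated to the AIN-93M control diet. The control group stayed on that diet, with 12% of its energy from fat, 10% from protein and 78% from carbohydrate (5 libraries per tissue). The high-fat group was moved for 1 week to a diet that is not ketogenic, with 75% fat, 10% protein and 10% carbohydrate (6 libraries), and the ketogenic group for 1 week to a diet with 90% fat and 10% protein (7 libraries). These shares are those of the sample labels, while the design text of the series gives 10% carbohydrate for every diet. With 10% carbohydrate, the control shares would fall far short of the whole and the ketogenic shares would exceed it. The labelled shares of the control and ketogenic diets make up the whole, so the labels were followed. Tissue was taken at night, within the hours in which mice feed. Bulk RNA was sequenced, and in such samples fewer cells of a type and less RNA per cell cannot be told apart.

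Cholesterol is built from acetyl-CoA through the mevalonate pathway. Mevalonate is turned into isoprenoid units, these are joined to squalene, and squalene is closed into lanosterol, from which a series of demethylations, reductions and isomerisations leads to cholesterol. The genes of the pathway are switched on together by the transcription factor SREBP2, encoded by Srebf2. When sterols are plentiful in the endoplasmic reticulum, the INSIG proteins hold SREBP2 and its escort SCAP there, and when sterols fall the complex moves to the Golgi, where SREBP2 is cut and released. Excess cholesterol is esterified by the acyltransferases SOAT1 and SOAT2 or exported by the transporters ABCA1 and ABCG1, whose genes answer to the sterol-sensing LXR receptors. Liver is a main site of this synthesis in the body, and most other tissues also make cholesterol for their own membranes.

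Library totals were 18.87 to 35.92 M counts in liver and 25.37 to 47.04 M in kidney. Mitochondrial transcripts took 49.67 to 71.68% of liver counts and 68.32 to 79.7% of kidney counts, which left 7.17 to 14.57 M and 6.48 to 11.91 M other counts. Levels are given as counts per M (CPM), with library sizes scaled by TMM factors. Of the 5 hepatocyte markers, all had counts in liver, where their summed level was 25600 to 40300 CPM. The 5 proximal tubule markers summed to 1560 to 3070 CPM in kidney and to at most 2.04 CPM in liver, where Slc22a6 and Slc34a1 were at 0 in all libraries. The hepatocyte markers summed to 320 to 800 CPM in kidney, of which Cyp2e1 alone, at 307 to 785 CPM, made up most. Adrenal cortex, a steroid-making tissue beside the kidney, was represented by 6 markers that summed to 1.23 to 2.73 CPM in kidney. Star alone, at 1.08 to 2.43 CPM, made up most of that sum, and Cyp11a1, Cyp11b1, Cyp21a1 and Hsd3b1 had a median of 0.

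Promoter windows from RefSeq (GRCm38.p6, 250 bases before to 50 after the annotated start) were available for 24 of the listed genes. The letters of the binding box of NF-Y, a factor that works beside SREBP2 at many sterol genes, were searched as CCAAT on both strands. At least 1 window of 21 of the 24 genes held them (87.5%), against 41.1% of the 27025 genes with a window. Among genes tested in both tissues the shares were 20 of 23 members (87.0%) and 43.0% of 8678 genes. The Sp1 box, searched as GGGCGG on both strands, was present for 22 of the 24 (91.7%) and for 38.2% of all genes, and for 91.3% of tested members against 68.0% of tested genes. The core of a sterol regulatory element, searched as TCACNCCAC on both strands, was found for 1 of the 24, Hmgcs1 (4.17%), and for 1.44% of all genes. That gene had no counts here, and among tested genes the core was found for 0 of 23 members and 1.45% of 8678 genes. The letters of different motifs can share bases at their ends, and such overlaps were kept. A match is a description of the sequence, not of binding. The windows below belong to 3 enzyme genes whose ketogenic responses had opposite signs in the 2 tissues (Idi1, Sc4mol and Cyp51) and to the genes Insig1 and Insig2, whose products act on SREBP2 in the same way. They are written 5′ to 3′ on the strand of the gene, and capitals mark CCAAT or its reverse complement. The boxes begin 45 and 14 bases before the start in Idi1, 160, 96 and 55 bases before it in Sc4mol, 29 bases before it in Cyp51 and 216 bases before it in Insig1. The Insig2 window, the one of its 3 windows that holds boxes, has them 136, 46 and 29 bases before the start.
Idi1, chr13:8885356-8885655, plus strand: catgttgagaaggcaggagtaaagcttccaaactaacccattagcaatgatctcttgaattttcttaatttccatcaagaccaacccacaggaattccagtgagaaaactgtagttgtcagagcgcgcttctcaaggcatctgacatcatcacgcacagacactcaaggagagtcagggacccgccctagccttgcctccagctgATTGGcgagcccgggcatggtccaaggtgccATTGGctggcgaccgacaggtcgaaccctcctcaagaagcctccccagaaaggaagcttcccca
Sc4mol (Msmo1), chr8:64733529-64733828, minus strand: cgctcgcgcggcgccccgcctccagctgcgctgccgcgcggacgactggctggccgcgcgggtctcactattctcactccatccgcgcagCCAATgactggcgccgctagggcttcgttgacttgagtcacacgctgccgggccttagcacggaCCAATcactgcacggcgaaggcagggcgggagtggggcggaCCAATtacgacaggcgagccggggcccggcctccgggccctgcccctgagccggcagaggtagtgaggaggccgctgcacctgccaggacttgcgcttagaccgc
Cyp51, chr5:4104648-4104947, minus strand: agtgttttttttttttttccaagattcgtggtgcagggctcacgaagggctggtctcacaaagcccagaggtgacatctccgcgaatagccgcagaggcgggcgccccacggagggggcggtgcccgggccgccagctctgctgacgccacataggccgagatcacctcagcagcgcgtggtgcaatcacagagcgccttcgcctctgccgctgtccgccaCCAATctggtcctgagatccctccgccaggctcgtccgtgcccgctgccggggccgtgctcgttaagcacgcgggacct
Insig1, chr5:28071162-28071461, plus strand: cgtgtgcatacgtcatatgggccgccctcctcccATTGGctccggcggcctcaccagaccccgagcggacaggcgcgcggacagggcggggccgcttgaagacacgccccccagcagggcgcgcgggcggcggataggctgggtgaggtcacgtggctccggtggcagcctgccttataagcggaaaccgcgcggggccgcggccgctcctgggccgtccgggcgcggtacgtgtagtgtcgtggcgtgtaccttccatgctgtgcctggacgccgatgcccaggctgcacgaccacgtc
Insig2, chr1:121332540-121332839, minus strand: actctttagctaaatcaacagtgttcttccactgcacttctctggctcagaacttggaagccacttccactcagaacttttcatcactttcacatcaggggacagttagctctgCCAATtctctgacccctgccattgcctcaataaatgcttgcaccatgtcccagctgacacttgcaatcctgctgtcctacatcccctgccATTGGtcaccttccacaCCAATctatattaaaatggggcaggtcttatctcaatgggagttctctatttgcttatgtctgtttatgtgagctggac

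On the ketogenic diet Idi1, Fdft1, Sqle, Cyp51 and Sc4mol, enzymes of cholesterol synthesis, averaged higher than on the control diet in liver and lower in kidney. None of the 30 genes passed the test in either tissue. At an adjusted p of 0.05 (edgeR's quasi-likelihood test with Benjamini-Hochberg adjustment over all genes tested), 0 of 30 members were called in liver, where 0% of 13374 genes were, and 0 of 30 in kidney, where 0.325% of 15074 genes were. At an unadjusted p under 0.05, 10 of 30 members were higher in liver, against 4.36% of all genes: Mvk, Idi1, Fdft1, Sqle, Cyp51, Sc4mol, Nsdhl, Hsd17b7, Srebf2 and Insig2. No member was lower at that level in liver, against 5.02% of all genes. Synthesis genes tended to rise and fall together between liver libraries, so the members counted are not independent. Averaged over 18 synthesis enzymes, log2 CPM in liver controls 0 to 4 deviated from the tissue mean by -0.52, -0.12, -0.6, 0.09 and 0.11. Ketogenic livers ranged from -0.15 to 0.34, and only controls 0 and 2 lay outside that range. Kidney controls ranged from -0.09 to 0.21 and ketogenic kidneys from -0.26 to 0.1. In kidney 9 of 30 were lower at an unadjusted p under 0.05, against 3.07% of all genes: Pmvk, Idi1, Fdft1, Sqle, Cyp51, Sc4mol, Insig1, Soat1 and Abca1. Ebp, the sterol isomerase, was higher there, as were 5.28% of all genes. DESeq2 called 3 members in liver (Cyp51, Hsd17b7 and Insig2, among 76 genes) and 2 in kidney (Idi1 and Sqle, among 105 genes), and limma-voom called 0 in both. By sign, 19 of 30 members lay above 0 in liver, against 47.3% of all genes, and 9 of 30 in kidney, against 53.2%. The median log2 change of the 30 members was 0.12 in liver, against -0.02 over all genes, and -0.12 in kidney, against 0.02 over all genes.

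Set side by side, 11 of the 30 members had a log2 change above 0 in liver and below 0 in kidney, as had 19% of the 12414 genes tested in both tissues. They were Mvk, Idi1, Fdft1, Sqle, Lss, Cyp51, Dhcr7, Srebf2, Insig2, Mylip and Sc4mol. The opposite pattern was seen for Soat2 alone, and for 23.8% of all genes. Another 8 members were above 0 in both tissues, against 27.9% of all genes, and 10 were below 0 in both, against 29.3%. Insig1 is among these 10 with a liver value of -0.03. At an unadjusted p under 0.05 in each tissue, 5 of 30 were higher in liver and lower in kidney (Idi1, Fdft1, Sqle, Cyp51 and Sc4mol), against 0.193% of all genes. These counts rest on the sign of an estimate, and for members near 0 the sign is within the error.

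**Figure D1:**
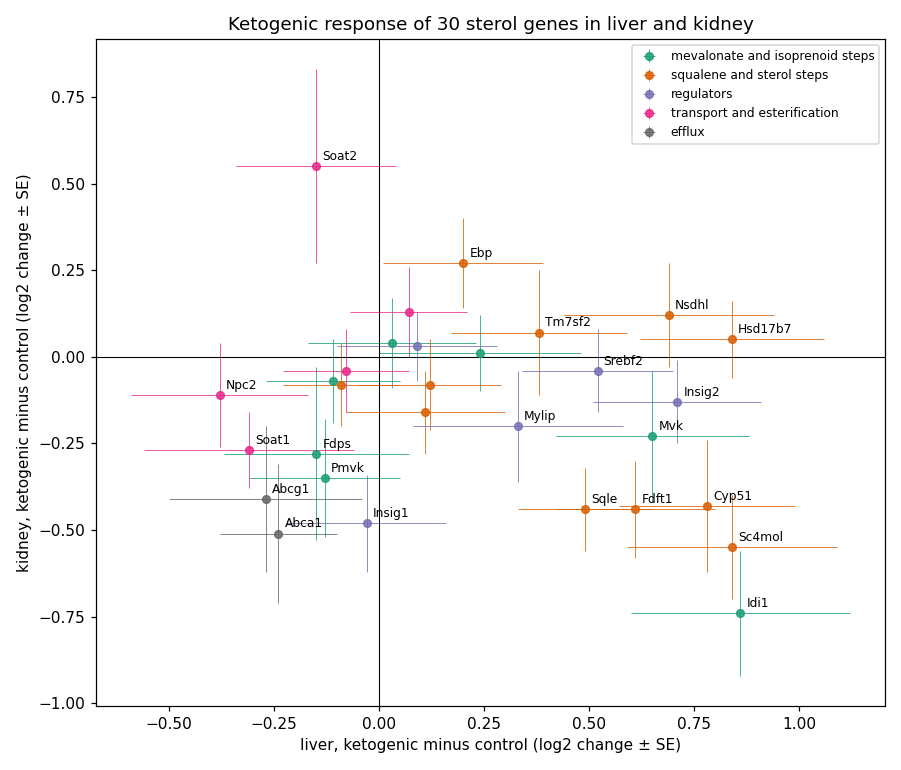
Log2 change on the ketogenic diet against control in liver (horizontal axis) and kidney (vertical axis) for the 30 sterol genes, with bars of 1 standard error (SE) and colours for role. Idi1, Sc4mol, Cyp51, Fdft1 and Sqle lie at the lower right, between 0.49 and 0.86 in liver and between -0.43 and -0.74 in kidney, while Hsd17b7 and Nsdhl lie to the right near 0 in kidney.

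The difference between the tissues was tested itself, as the liver response minus the kidney response in 1 fit of all 36 libraries. Of 30 members 0 passed at an adjusted p of 0.05, as did 0% of 15430 genes. Idi1, Sqle and Sc4mol came nearest, all at an adjusted p of 0.0684 (edgeR's quasi-likelihood test with Benjamini-Hochberg adjustment). The log2 difference was 1.63 ± 0.33 (SE) for Idi1, 0.96 ± 0.20 for Sqle and 1.40 ± 0.30 for Sc4mol. Fdft1 followed at 1.07 ± 0.25 (edgeR adjusted p = 0.101) and Cyp51 at 1.24 ± 0.30 (edgeR adjusted p = 0.110). At an unadjusted p under 0.05, 9 of 30 members had the higher response in liver, against 4.13% of all genes, and Soat2 the lower one, against 3.69%. The 9 were Mvk, Idi1, Fdft1, Sqle, Cyp51, Sc4mol, Hsd17b7, Srebf2 and Insig2. In all, 24 of 30 differences lay above 0, against 48.9% of all genes, and the median difference was 0.27 for the 30 members against -0.01 for all genes. The call of the closest members depended on the tool and on single libraries. DESeq2 called 5 members (Idi1, Fdft1, Sqle, Cyp51 and Sc4mol, among 45 genes) and limma-voom with a variance for each tissue called 3 (Idi1, Sqle and Sc4mol, among 5). Leaving out liver control 4 gave 4 calls (Idi1, Fdft1, Sqle and Sc4mol), liver control 1 gave 1 (Idi1) and liver control 3 gave 1 (Sqle).

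Among the early steps, Idi1, the isopentenyl diphosphate isomerase that makes the second isoprenoid building block, had the widest difference between the tissues among the 30. In liver it stood at 11.6, 25, 9.55, 16.2 and 24.3 CPM in the 5 control libraries, and on the ketogenic diet it ranged from 23.4 to 44.3 CPM with a median of 28.9. Each of the 7 ketogenic libraries exceeded the control mean, and the groups overlapped only where control 1 and control 4 reached the lowest ketogenic libraries. In kidney Idi1 stood at 5.38, 4.68, 3.2, 3.41 and 5.66 CPM in the control libraries and at 1.85 to 3.46 CPM on the ketogenic diet, with a median of 2.64. There all 7 ketogenic libraries lay below the control mean, and 1 of them exceeded the lowest controls. The log2 change was 0.86 ± 0.26 (SE) in liver (edgeR adjusted p = 0.296) and -0.74 ± 0.18 in kidney (edgeR adjusted p = 0.0893). In kidney Idi1 passed the threshold when control 2 (edgeR adjusted p = 0.0398) or high-fat 2 (edgeR adjusted p = 0.0428) was left out, and the adjusted p over its 28 alternatives ran from 0.0204 to 0.297. In the authors' deposited tables Idi1 was the member with the smallest false discovery rate of this comparison, 0.0697 in liver and 0.392 in kidney. In the edgeR fits Idi1 ranked first among the members in kidney but not in liver, where Cyp51 did. Idi1 lies on chromosome 13 at 8884852 to 8891641 (mm9, kidney table).

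The other enzymes before squalene had mixed values. Mvk, the mevalonate kinase, averaged 7.97 ± 1.82 (SD, n = 7) CPM on the ketogenic diet and 5.09 ± 1.85 (SD, n = 5) on the control diet in liver, a log2 change of 0.65 ± 0.23 (SE; edgeR adjusted p = 0.392). In kidney it averaged 2.04 ± 0.369 and 2.39 ± 0.3 CPM. Pmvk, the phosphomevalonate kinase of the next step, averaged 30.5 ± 6.54 CPM against 33.4 ± 8.82 in liver, and in kidney 2.3 ± 0.432 against 2.95 ± 0.607, a log2 change of -0.35 ± 0.17 (edgeR adjusted p = 0.586). The decarboxylase gene Mvd, the acetoacetyl-CoA thiolase gene Acat2 and the prenyl diphosphate synthase genes Fdps and Ggps1 had log2 changes between -0.15 and 0.24 in liver and between -0.28 and 0.04 in kidney. Over the 7 measured genes of this stage the median log2 change was 0.03 in liver and -0.23 in kidney.

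Fdft1, the squalene synthase, commits isoprenoids to sterols. In liver it stood at 67.3, 93, 62.6, 106 and 112 CPM on the control diet and ranged from 104 to 167 CPM with a median of 136 on the ketogenic diet. All 7 ketogenic libraries exceeded the control mean, and the 2 highest controls lay inside the ketogenic range. In kidney the control libraries stood at 9.73, 7.68, 7.49, 8.46 and 6.7 CPM and the ketogenic libraries at 4.77 to 7.79 with a median of 5.74. All 7 ketogenic kidney libraries lay below the control mean, with overlap at the upper end. The log2 change of Fdft1 was 0.61 ± 0.19 (SE) in liver (edgeR adjusted p = 0.316) and -0.44 ± 0.14 in kidney (edgeR adjusted p = 0.303). Sqle, the squalene epoxidase of the following, oxygen-dependent step, showed the same signs. Its liver levels were 45.7, 45.6, 34.3, 65.4 and 49.6 CPM on the control diet and 56.4 to 88.8 with a median of 64.9 on the ketogenic diet. Control 3 was the one control library inside the ketogenic range. Its kidney levels were 25.5, 24.8, 22.4, 20.1 and 25.9 CPM on the control diet and 12.9 to 20.4 with a median of 16.7 on the ketogenic diet, so that control 3 alone overlapped the ketogenic range there as well. The log2 change of Sqle was 0.49 ± 0.16 in liver (edgeR adjusted p = 0.354) and -0.44 ± 0.12 in kidney (edgeR adjusted p = 0.146). Fdft1 lies on chromosome 14 at 63763990 to 63796630 and Sqle on chromosome 15 at 59146632 to 59162747 (mm9, kidney table).

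**Figure D2:**
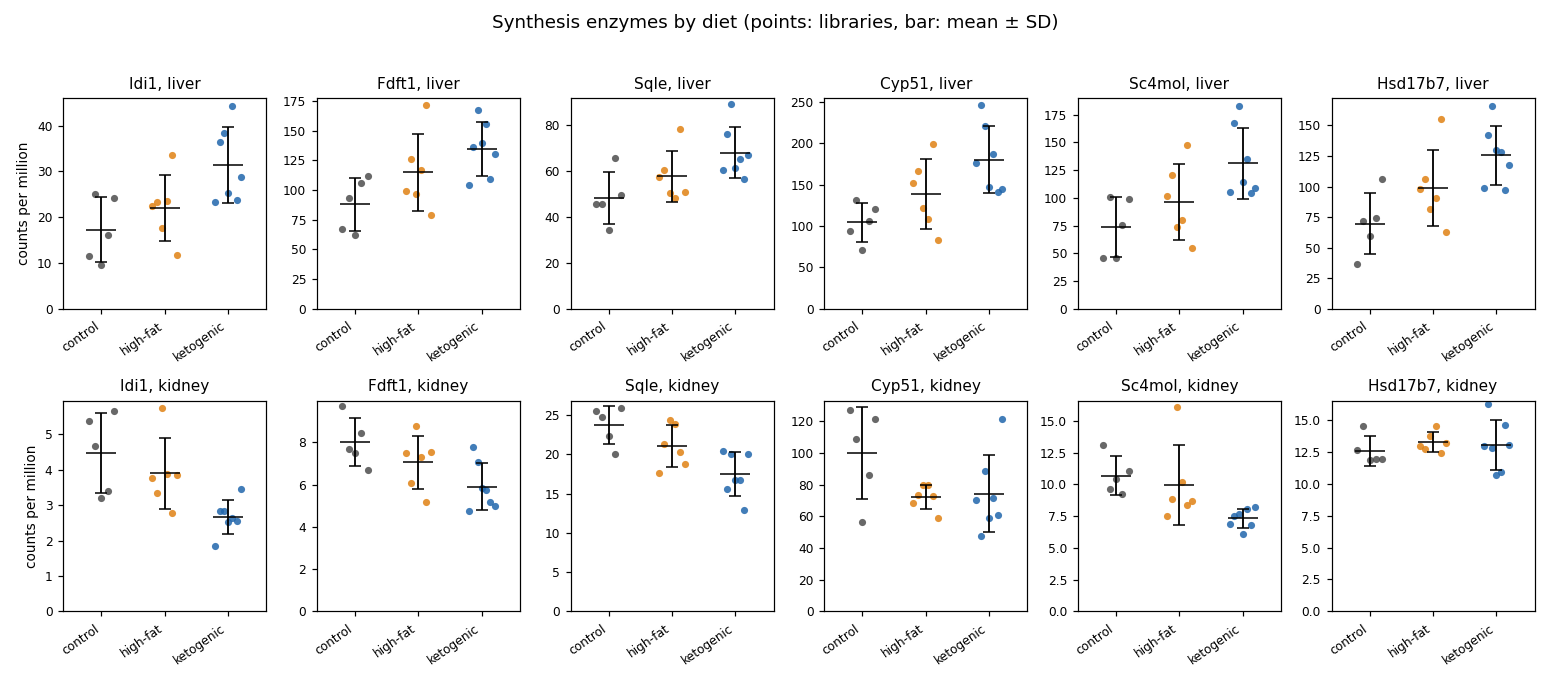
CPM of 6 synthesis enzymes in every library, with liver in the upper row and kidney in the lower row. Points are libraries, black bars the mean ± SD, and axes start at 0. The ketogenic libraries sit above most control libraries in liver for all 6, with no overlap for Cyp51 and Sc4mol, and below most control libraries in kidney for Idi1, Fdft1, Sqle and Sc4mol.

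Cyp51, the lanosterol demethylase, and Sc4mol, the methylsterol monooxygenase, take methyl groups off the new sterol ring. They were the 2 members (of 30) whose control and ketogenic libraries did not overlap in liver, with the ketogenic group higher, a separation seen for 0.329% of all genes. No member separated the other way in liver, as 0.179% of genes did. Cyp51 stood at 93.5, 132, 71.5, 106 and 121 CPM in liver controls and at 141 to 246 with a median of 176 on the ketogenic diet, a log2 change of 0.78 ± 0.21 (SE; edgeR adjusted p = 0.244). In kidney it stood at 127, 109, 56.5, 86.1 and 121 CPM in controls and at 47.6 to 121 with a median of 70.1 on the ketogenic diet, and the groups overlapped widely. The kidney log2 change of Cyp51 was -0.43 ± 0.19 (edgeR adjusted p = 0.559), with 6 of 7 ketogenic libraries below the control mean. Sc4mol separated in both tissues. In liver it stood at 45.8, 101, 46.2, 75.5 and 98.5 CPM in controls and at 104 to 183 with a median of 114 on the ketogenic diet, and in kidney at 13.1, 9.62, 10.4, 9.26 and 11.1 CPM against 6.09 to 8.24 with a median of 7.54. It was the 1 member of 30 whose kidney groups did not overlap, with the ketogenic group lower, as for 0.179% of all genes. None separated there with the ketogenic group higher, against 0.531% of genes. Its log2 change was 0.84 ± 0.25 in liver (edgeR adjusted p = 0.296) and -0.55 ± 0.15 in kidney (edgeR adjusted p = 0.157). Sc4mol passed the kidney threshold without high-fat 2, and in a fit of the control and ketogenic libraries alone. Cyp51 lies on chromosome 5 at 4081145 to 4104746 and Sc4mol on chromosome 8 at 67196936 to 67212589 (mm9).

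Hsd17b7, a reductase, and Nsdhl, a dehydrogenase, work with Sc4mol in removing those methyl groups, and both averaged higher in the ketogenic liver and near control in the ketogenic kidney. Hsd17b7 stood at 37.1, 72.1, 59.5, 74.4 and 106 CPM in liver controls and at 96.9 to 166 with a median of 128 on the ketogenic diet. Control 4 was the one control library that reached the ketogenic range. In kidney Hsd17b7 stood at 12.6, 14.5, 11.8, 11.9 and 11.9 CPM in controls and at 10.7 to 16.2 with a median of 12.9 on the ketogenic diet, with the groups overlapping throughout. The log2 change of Hsd17b7 was 0.84 ± 0.22 (SE) in liver (edgeR adjusted p = 0.244) and 0.05 in kidney. Nsdhl had 0.69 ± 0.25 in liver (edgeR adjusted p = 0.397) and 0.12 in kidney. The other genes after squalene had smaller estimates: Lss, Tm7sf2, Ebp, Sc5d and Dhcr7, which encode the cyclase and later reductases, isomerase and desaturase, lay between -0.09 and 0.38 in liver and between -0.16 and 0.27 in kidney. Ebp had the upper kidney value, 0.27 ± 0.13 (edgeR adjusted p = 0.586), with 5 of 7 ketogenic libraries above the control mean. Over the 11 genes of this stage the median log2 change was 0.49 in liver and -0.08 in kidney, and that of the tissue difference 0.59. Hsd17b7 lies on chromosome 1 at 171879666 to 171899372 and Nsdhl on chromosome X at 70163896 to 70203853 (mm9, kidney table).

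Among the regulators, Srebf2 averaged higher in the ketogenic liver, and its kidney values were near control. Srebf2, which encodes SREBP2 and is itself one of its targets, stood at 8.05, 12.2, 14.4, 13.3 and 16.3 CPM in liver controls and at 14.2 to 22.1 with a median of 18.6 on the ketogenic diet. All 7 ketogenic libraries exceeded the control mean and the groups overlapped between 14.2 and 16.3. In kidney Srebf2 stood at 13.3, 11.9, 13.3, 13.7 and 8.79 CPM in controls and at 9.16 to 15 with a median of 11.8 on the ketogenic diet. The log2 change of Srebf2 was 0.52 ± 0.18 (SE) in liver (edgeR adjusted p = 0.381) and -0.04 in kidney. Scap, the escort of SREBP2, had 0.09 in liver and 0.03 in kidney, and Mylip, a ubiquitin ligase gene under LXR control that lowers lipoprotein receptors, 0.33 ± 0.25 and -0.20 ± 0.16.

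Of the 2 INSIG genes, whose products both retain SREBP2 in the endoplasmic reticulum, Insig2 averaged higher in the ketogenic liver and Insig1 lower in the ketogenic kidney. Insig2 stood at 137, 238, 143, 158 and 249 CPM in liver controls and at 225 to 379 with a median of 309 on the ketogenic diet. All 7 ketogenic libraries exceeded the control mean, and controls 1 and 4 lay within the ketogenic range. Its kidney levels were 18.9, 17.7, 18.3, 19 and 20.9 CPM in controls and 10.9 to 20.1 with a median of 18 on the ketogenic diet, where ketogenic 0 lay apart from the others. The log2 change of Insig2 was 0.71 ± 0.20 (SE) in liver (edgeR adjusted p = 0.248) and -0.13 in kidney, and the difference between them 0.86 (edgeR adjusted p = 0.265). Insig1 is a direct target of SREBP2. It stood at 414, 184, 152, 241 and 177 CPM in liver controls and at 189 to 298 with a median of 218 on the ketogenic diet, a log2 change of -0.03, and liver control 0 exceeded all ketogenic libraries. Without that library the liver log2 change was 0.28 ± 0.15 (edgeR adjusted p = 0.714, and 0.714 to 0.997 over 28 alternatives, added after the data were seen), and it was 0.01 without liver ketogenic 3 or ketogenic 5. In kidney Insig1 stood at 23.7, 16.9, 16, 16.9 and 16.6 CPM in controls and at 10.3 to 16.2 with a median of 12.7 on the ketogenic diet. All 7 ketogenic kidney libraries lay below the control mean and only the lowest control lay inside their range. Its kidney log2 change was -0.48 ± 0.14 (edgeR adjusted p = 0.202), and without control 0 it was -0.37 (edgeR adjusted p = 0.693). Over its 28 alternatives the adjusted p ran from 0.108 to 0.693. The difference of Insig1 between the tissues was 0.49 (edgeR adjusted p = 0.653), and 0.78 without liver control 0 (edgeR adjusted p = 0.177, and 0.177 to 0.882 over 31 alternatives). Insig1 lies on chromosome 5 at 28397952 to 28405201 and Insig2 on chromosome 1 at 123200930 to 123229166 (mm9, kidney table).

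**Figure D3:**
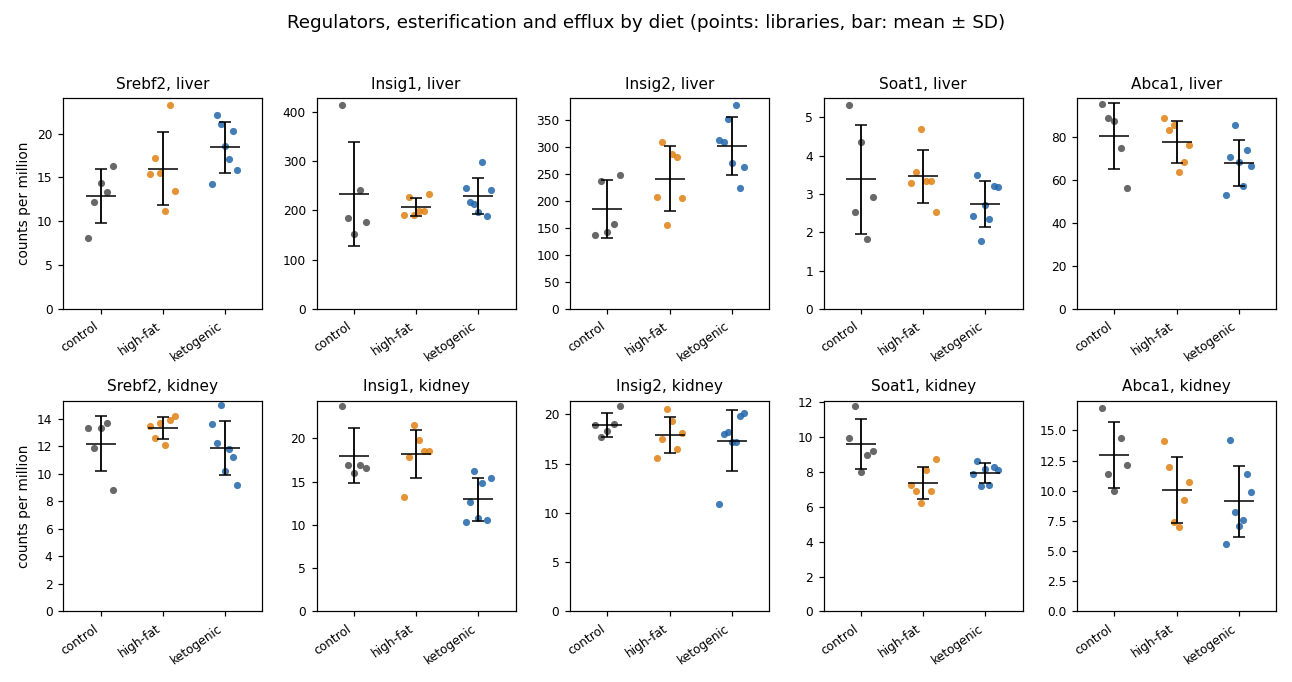
CPM of the regulators Srebf2, Insig1 and Insig2, the acyltransferase Soat1 and the exporter Abca1 in every library, liver above and kidney below. Points are libraries and black bars the mean ± SD. Insig2 and Srebf2 averaged higher in the ketogenic liver and near control in kidney, while Insig1 averaged lower in the ketogenic kidney, and single libraries (kidney control 0 for Insig1, kidney ketogenic 0 for Insig2) lie apart.

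Among the genes of esterification, transport and efflux, all but Soat2 had a log2 change of the same sign in both tissues. Soat1, the cholesterol acyltransferase of most tissues, stood at 9.96, 11.8, 7.99, 8.94 and 9.22 CPM in kidney controls and at 7.17 to 8.64 with a median of 8.12 on the ketogenic diet. All 7 ketogenic libraries lay below the control mean, and the lowest control lay inside their range. In liver Soat1 stood at 5.33, 2.52, 4.35, 1.82 and 2.92 CPM in controls and at 1.78 to 3.49 with a median of 2.72 on the ketogenic diet. Its log2 change was -0.27 ± 0.11 (SE) in kidney (edgeR adjusted p = 0.477) and -0.31 ± 0.25 in liver (edgeR adjusted p = 0.742). Soat2, the acyltransferase of hepatocytes and enterocytes, had the one pattern opposite to the enzymes by sign. Its log2 change was -0.15 ± 0.19 in liver (edgeR adjusted p = 0.854), a sign within the error, and 0.55 ± 0.28 in kidney (edgeR adjusted p = 0.613). In kidney Soat2 was low, at 0.632 ± 0.157 (SD, n = 5) CPM on the control diet and 0.93 ± 0.344 (SD, n = 7) on the ketogenic diet. The sterol transfer genes Npc1, Npc2 and Stard4, which move cholesterol out of lysosomes or between membranes, lay between -0.38 and 0.07 in liver and between -0.11 and 0.13 in kidney.

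Abca1, which loads cholesterol onto apolipoprotein A-I, averaged lower on the ketogenic diet in both tissues. In liver it stood at 95.2, 88.7, 87.4, 74.8 and 56.1 CPM in controls and at 53.1 to 85.3 with a median of 68.3 on the ketogenic diet. In kidney it stood at 16.9, 11.4, 9.98, 14.4 and 12.1 CPM in controls and at 5.55 to 14.2 with a median of 8.21 on the ketogenic diet. In each tissue 6 of 7 ketogenic libraries lay below the control mean and the groups overlapped. The log2 change of Abca1 was -0.24 ± 0.14 (SE) in liver (edgeR adjusted p = 0.631) and -0.51 ± 0.20 in kidney (edgeR adjusted p = 0.483). Abcg1, which exports sterols to mature lipoprotein particles, had -0.27 ± 0.23 and -0.41 ± 0.21. In the kidney table (mm9) Abca1 lies on chromosome 4 at 53043659 to 53172767, Soat1 on chromosome 1 at 158358239 to 158404459 and Srebf2 on chromosome 15 at 81977696 to 82035806.

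The high-fat diet, rich in fat but not ketogenic, was compared with the same control libraries as the ketogenic diet, so the values below share their controls. In the high-fat liver 0 of 30 members were called (0% of all genes), and Hsd17b7 and Nsdhl were higher at an unadjusted p under 0.05, against 2.57% of all genes. None was lower, against 4.53%. Hsd17b7 averaged 99 ± 31.1 (SD, n = 6) CPM there, between 69.9 ± 25.2 (n = 5) on the control and 126 ± 24.2 (n = 7) on the ketogenic diet. Against control, the liver log2 changes on the high-fat and ketogenic diets were 0.35 and 0.86 for Idi1, 0.40 and 0.84 for Sc4mol, 0.40 and 0.78 for Cyp51, 0.39 and 0.71 for Insig2, and 0.38 and 0.61 for Fdft1. In kidney 0 of 30 were called on the high-fat diet, against 0.0133% of all genes, and Cyp51 and Soat1 were lower at an unadjusted p under 0.05, against 2% of all genes. None was higher, against 3.73%. The kidney values on the high-fat and ketogenic diets were -0.19 and -0.74 for Idi1, -0.10 and -0.55 for Sc4mol, 0.02 and -0.48 for Insig1, -0.47 and -0.43 for Cyp51, and -0.38 and -0.27 for Soat1.

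**Figure D4:**
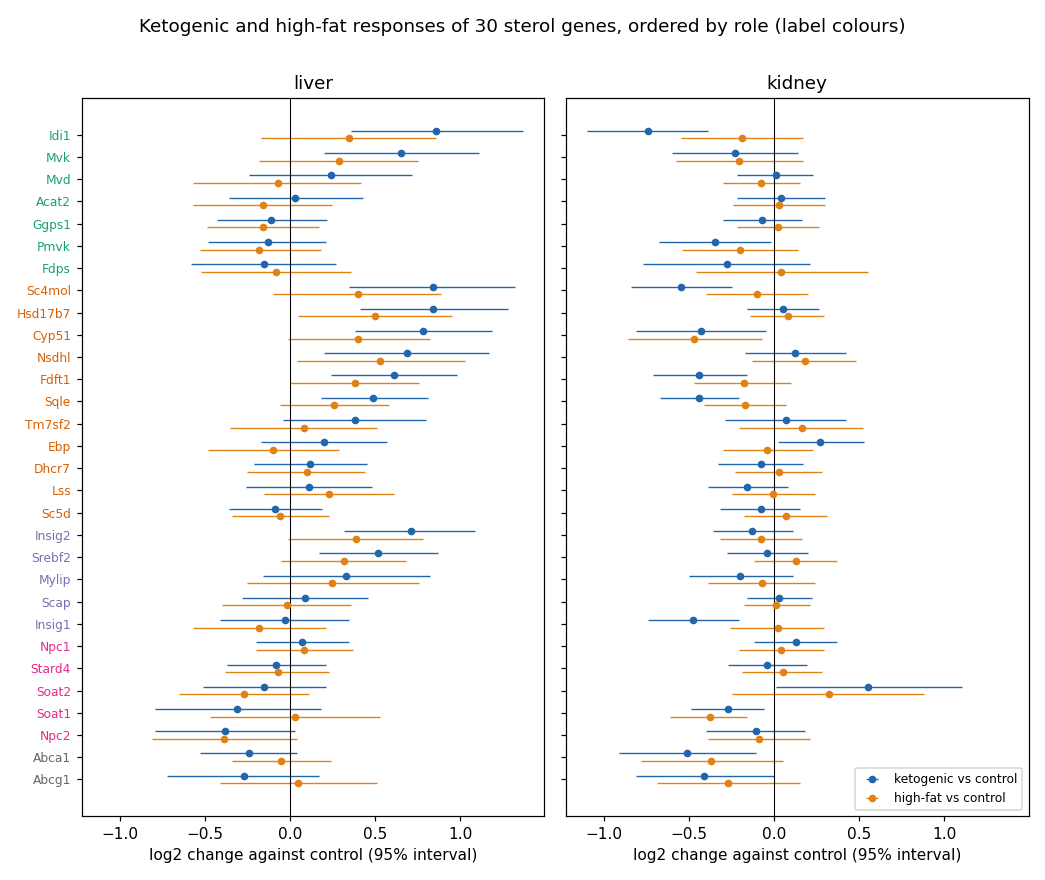
Log2 change against control with 95% intervals for the 30 sterol genes, ordered by role, in liver (left) and kidney (right), for the ketogenic and the high-fat diet. The intervals are not adjusted for the number of genes. In liver the ketogenic intervals of Mvk, Idi1, Fdft1, Sqle, Cyp51, Sc4mol, Nsdhl, Hsd17b7, Srebf2 and Insig2 lie above 0. The high-fat liver intervals of Hsd17b7 and Nsdhl lie above 0 as well. In kidney the ketogenic intervals of Idi1, Sc4mol, Sqle, Insig1, Fdft1, Abca1 and Pmvk lie below 0 while their high-fat intervals include 0. The kidney intervals of Cyp51 and Soat1 lie below 0 on both diets, and the ketogenic ones of Ebp and Soat2 lie above 0. The intervals use a normal quantile and are somewhat narrower than the test implies. Soat2 in kidney thus lies just above 0 at an unadjusted p of 0.0584 (edgeR's quasi-likelihood test).

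In the direct comparison of ketogenic with high-fat feeding, 0 of 30 members were called in either tissue, where 0% of liver genes and 0.0464% of kidney genes were called. DESeq2 and limma-voom also called 0 members in these comparisons and in those of the high-fat with the control diet. In kidney 4 members were lower on the ketogenic diet at an unadjusted p under 0.05, against 1.98% of all genes. Insig1 had a log2 difference of -0.49 ± 0.13 (SE; edgeR adjusted p = 0.359), Idi1 -0.55 ± 0.17 (0.623), Sc4mol -0.45 ± 0.14 (0.652) and Sqle -0.27 ± 0.11 (1). Insig1 ranged from 13.2 to 21.5 CPM with a median of 18.5 on the high-fat diet, so that 1 of 6 high-fat libraries fell inside the ketogenic range of 10.3 to 16.2. Ebp was higher at 0.31 ± 0.12, against 2.08% of all genes. In liver the ketogenic value exceeded the high-fat one at that level for Idi1 alone (0.52 ± 0.24, edgeR adjusted p = 0.999), against 1.66% of all genes, and for none in the other direction, against 1.53%.

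The members differed widely in level. Per kilobase of annotated transcript, control liver levels ran from 0.708 CPM per kb for Soat1 to 110 ± 20.1 (SD, n = 5) for Sc5d, the sterol desaturase, with Insig1 at 86.8 ± 39.4 and Insig2 at 72.6 ± 21.4 following. Control kidney levels ran from 0.285 CPM per kb for Soat2 to 23.3 ± 6.7 for Cyp51, followed by Npc2 at 8.6 ± 0.858. Cyp51 stood at 24.4 ± 5.52 CPM per kb in control liver. No test of levels between tissues was made, since the 2 tables use different gene models. Of the 30 members, 14 had the same annotated length in both and 6 had lengths more than 1.5 times apart. Reads of Fdps and other members with near-identical copies elsewhere in the genome can be split between copies or left out, so their levels are uncertain.

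A further 24 genes of sterol regulation, uptake, ester hydrolysis and isoprenoid use were measured beside the members, among them the SREBP proteases Mbtps1 and Mbtps2, the LXR genes Nr1h2 and Nr1h3 and the receptor Scarb1. All 24 were tested and 0 were called in any of the 7 comparisons. On the ketogenic diet 2 of 24 were higher and 1 of 24 lower at an unadjusted p under 0.05 in liver, against 4.36% and 5.02% of all genes. In kidney 0 of 24 were higher and 0 lower, against 5.28% and 3.07%, with median log2 changes of the list of 0.02 in liver and -0.03 in kidney. Acat1, a mitochondrial thiolase, and Pdss2, a subunit of the enzyme that makes the ubiquinone side chain, were the 2 that were higher, and Nr1h2 the one that was lower. In the tissue difference 4 of the 24 were above 0 at that level, against 4.13% of all genes, and 0 below, against 3.69%, with a median of 0.09.

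Markers of other cell types and the mitochondrial share were read in the same libraries, and 0 markers were called in liver or kidney on the ketogenic diet. Of 5 adipocyte markers, Cidec carried nearly all of the liver signal, and the list summed to 2.86 to 28 CPM in control and 24.2 to 41.4 in ketogenic livers. Adipoq, Plin1 and Retn reached at most 0.116 CPM in any liver library and Lep was at 0. Cidec was the 1 marker with an unadjusted p under 0.05 in those comparisons, higher in liver by 1.04 on the log2 scale. In kidney the list summed to 1.04 to 11.7 CPM in control and 1.31 to 6.87 in ketogenic libraries. The macrophage markers found, 5 of 6, summed to 37.7 to 91.7 and 31.1 to 68.7 CPM in control and ketogenic livers, and to 9.98 to 14.4 and 8.3 to 12.5 in kidney. The part of these markers in the results was not tested. The mitochondrial share was 59.6% ± 6.77 (SD, n = 5) in control and 64.2% ± 5.32 (SD, n = 7) in ketogenic livers. With mitochondrial genes left out of the counts, 10 members were again higher in liver at an unadjusted p under 0.05. The fits with and without those genes were both scaled by TMM, and the part of the mitochondrial share in the results was not tested.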

How the data were processed

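RNA from 18 liver and 18 kidney samples was amplified with random and oligo-dT primers (NuGEN Ovation) and sequenced on an Illumina HiSeq, per the labels' protocols. The authors deposited 1 table of raw counts per gene for each tissue, per the file headers. The kidney counts were whole numbers as well, so that none of the deposited values was an estimated count that needed rounding. The false discovery rates (adjusted p-values) quoted as such are those of the authors' deposited tables. Build mm9 and the tools featureCounts, Subread, TopHat2 2.0.11, DESeq and edgeR stand in the submitters' processing notes without roles. Another 90 columns of per-sample values were not used. Whether counting used strand is not given in the sources used here, so overlapping genes on opposite strands cannot be told apart.

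Counts were filtered with edgeR 4.0.16 filterByExpr (minimum count 10), scaled by TMM and tested with edgeR's robust quasi-likelihood F test in R 4.3.3, with the 18 libraries of a tissue in 1 fit. The tissue difference used 1 fit of all 36 libraries over genes in both tables. Benjamini-Hochberg adjustment ran over every gene tested, and the code was tested on simulated data. Alternatives covered scaling, filters, DESeq2 1.42.0, limma-voom (limma 3.58.1), a replicate block and leaving out each library. Sample titles and the diet field gave the groups. The labels do not state that each sample is a separate mouse, so p-values cover only the spread among the samples given. Every pair of libraries of 1 group differed by more than sampling noise.

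Members and lists were chosen with earlier results of these data known. Values in every library are given for the 8 members with the smallest p on the ketogenic diet in each tissue and the 4 with the smallest p for the tissue difference; other members named were picked after their values were seen. Intervals are 95% intervals for the estimated log2 change, built from its SE with a normal quantile, and are not adjusted.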

Additional observations from a re-analysis of the deposited data

Results flagged for a closer look

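For 4 members every ketogenic liver library lay above the control mean and every ketogenic kidney library below it. The share of all genes with this pattern was not counted, so the number of members is a description only. The difference between the tissues was tested for each of the 4 members, with none past an adjusted p of 0.05 in edgeR's quasi-likelihood test. It was 1.63 on the log2 scale for Idi1, 1.40 for Sc4mol, 0.96 for Sqle (each at an adjusted p of 0.0684) and 1.07 for Fdft1 (edgeR adjusted p = 0.101).

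Among 66 groups checked for a library far from the others (11 members in 6 groups), 2 held one, where chance alone would mark about 1 group in 20. Kidney control 0 had a log2 CPM of 4.57 for Insig1, against 4.0 to 4.09 in the other 4 control libraries. Kidney ketogenic 0 had a log2 CPM of 3.45 for Insig2, against 4.11 to 4.33 in the other 6 ketogenic libraries.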

How the results depend on the processing

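Members called at an adjusted p of 0.05, 0 of 30 in each comparison, changed under these settings. In liver, ketogenic against control, DESeq2 gave 3 (among 76 genes called) and the replicate block 7 (among 81): Cyp51, Fdft1, Hsd17b7, Idi1, Insig2, Mvk and Sc4mol. In kidney no filter on low counts gave 1 (Idi1, among 38), DESeq2 2 (among 105), and a fit of the groups compared alone 1 (Sc4mol, among 39). For the tissue difference the stricter filter gave 1 (Idi1, among 4), limma-voom with a variance per tissue 3 (among 5), and DESeq2 5 (among 45). Leaving out 1 library gave 0 to 2 in kidney (among 35 genes without control 2 and 56 without high-fat 2), 0 to 4 for the tissue difference (among 33 without liver control 4, 4 without liver control 1 and 1 without liver control 3) and 0 in the other comparisons. The cause of these changes was not tested. The other settings for these comparisons kept the count at 0. The labels do not say that a replicate number marks a shared mouse or batch, and not every pair of the same number correlated over 0.1 in its deviations. In liver 7 of 16 pairs did (median r 0.05, other pairs 0.01) and in kidney 9 of 16 (0.11, other pairs -0.03). Between tissues 3 of 18 did (-0.02, other pairs 0). The numbers were therefore not taken to pair the samples, but these values do not settle whether a number marks a shared batch. The block left the count at 0 in the other comparisons.

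Members with an unadjusted p under 0.05 numbered 10 to 11 higher in liver, 6 to 10 lower in kidney and 9 to 11 for the tissue difference when 1 library was left out. By mean log2 CPM rather than the fit, 13 members (Insig1 and Mvd added) were higher in liver and lower in kidney. The number was 12 with library sizes without mitochondrial genes and 12 to 17 without single libraries. The share of all genes by mean log2 CPM was not counted, so no excess is read from these numbers. In the fit the 2 added members lay near 0, Insig1 at -0.03 in liver and Mvd at 0.01 in kidney. No estimate for the 11 members given by library changed sign in the comparisons for which they were chosen. Insig1 in liver, read under all alternatives after the data were seen, turned from -0.03 to 0.06 with limma-voom and 0.02 with the replicate block, and ran from -0.15 to 0.28 without single libraries.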
